A study of Sus scrofa with 6 samples.

Results

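Lysosomal hydrolases that take glycans apart were examined in IPEC-1 and IPEC-J2, cell lines of the pig gut, together with the enzyme that marks such hydrolases for the lysosome. The hydrolases were GLB1, HEXA, GUSB, HYAL1, ARSA and GLA, and the marking enzyme was GNPTAB. Every probe set was taken whose only gene symbol in the platform annotation was one of these names. This gave 8 probe sets for 7 genes, 2 of them for GUSB, out of 6765 genes with a symbol and 23935 probe sets without controls. All 8 carried the same symbol in the RefSeq gene table through their gene identifier. The genes were proposed from earlier results of the same comparison, namely from higher hydrolase signals and a lower GNPTAB signal in IPEC-J2. Their levels and differences are therefore a description, no test is given for them, and nothing is supported with them.

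Both are epithelial lines that arose from piglet small intestine without an added oncogene, each is a single line, and both were untreated. From either line 3 cultures were taken, and 500 ng of total RNA per culture was labelled for 1 Affymetrix Porcine Genome Array, which made 6 arrays. Both lines grew on permeable membrane inserts at 39 °C in the same medium with serum, insulin, transferrin, selenium and epidermal growth factor, at passages 78 to 98 by the labels. The labels give 7 days of culture and the methods 10 days for the inserts. One cell bank number stands for IPEC-1 and IPEC-J2 alike in the labels, whereas the methods state separate numbers. The methods speak of independent experiments, and for genes with a signal in both lines any p-value here rests on how much these cultures varied.

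All values are log2 signals of probe sets as deposited, with a lowest value of exactly 4 on every array, called the floor here, at which signals carry no order. Between 40.4 and 48.2% of the probe sets stood at the floor on an array. Within a cell line, arrays correlated with Pearson r between 0.969 and 0.988 over 11005 probe sets above the floor on all arrays. IPEC-J2 replicate 1 was the dimmest array, with a 75th percentile of 8.31 where the other arrays had 8.51 to 8.57. Of 9 epithelial markers, 0 were at the floor on every array, and their mean log2 signal per array lay between 10.55 and 10.94 in IPEC-1 and between 10.44 and 10.77 in IPEC-J2. EPCAM, KRT8 and KRT18 had mean signals of 13.39, 12.54 and 12.59 in IPEC-1 and of 13.55, 12.46 and 12.29 in IPEC-J2. The tight junction gene TJP1 had a low signal in both lines, with a mean of 5.18 in IPEC-1 and the floor in IPEC-J2. The study detected its protein, ZO-1, in both lines by Western blot. OCLN (8.97 and 8.07) and KRT19 (13.08 and 12.28) also had lower means in IPEC-J2, and CDH1 had 9.37 and 9.27. In contrast, CLDN7 (10.44 and 11.53) and CLDN4 (11.71 and 11.93) had higher means in IPEC-J2. Of 6 fibroblast markers, COL3A1, DCN and LUM were at the floor on every array, whereas THY1 was at the floor in IPEC-1 and averaged 9.55 in IPEC-J2. COL1A2 averaged 5.94 in IPEC-1 and 5.91 in IPEC-J2, and PDGFRB 5.55 and 4.71. The mean of the list lay between 4.55 and 4.60 in IPEC-1 and between 5.28 and 5.41 in IPEC-J2. THY1 was the only marker of this list with a higher mean in IPEC-J2. Macrophages are rich in lysosomes, and of their 6 markers PTPRC, MRC1 and ITGAM were at the floor on every array, while AIF1 averaged 10.36 in IPEC-1 and 10.55 in IPEC-J2. The mean of the macrophage list lay between 4.99 and 5.10 in IPEC-1 and between 5.08 and 5.37 in IPEC-J2. The part of these markers in the results was not tested.

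A lysosome digests glycans step by step, since most of its glycosidases remove the sugar at the end of a chain and sulfatases remove the sulfate groups that block them. Loss of a single enzyme therefore lets its substrate pile up, which is the basis of the lysosomal storage diseases. New hydrolases receive mannose 6-phosphate on their N-glycans in the Golgi, and receptors for this mark carry them to endosomes. In the absorptive epithelium of the gut, lysosomes receive material taken up from the lumen as well as worn membrane, which brings both glycosaminoglycans and glycolipids.

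Among the enzymes that degrade glycosaminoglycans, GLB1 encodes the acid beta-galactosidase that removes terminal galactose from keratan sulfate and from the ganglioside GM1, and it is distinct from the lactase of the brush border. Its probe set (NCBI Gene 100624593) had log2 signals of 10.40, 10.46 and 10.53 on IPEC-1 replicates 1, 2 and 3 and of 11.61, 11.58 and 11.72 on those of IPEC-J2. All IPEC-J2 values lay above all IPEC-1 values, with a gap of 1.05 that is wider than the range within either line (0.13 and 0.14). The means were 10.46 ± 0.07 (SD, n = 3) in IPEC-1 and 11.64 ± 0.07 (SD, n = 3) in IPEC-J2, a log2 difference of 1.17 (SE 0.0568) or 2.26-fold higher. In such bulk RNA, fewer cells with a transcript and less of it per cell cannot be told apart. In IPEC-1, 11.2% of the probe sets above the floor had a smaller SD than GLB1, and in IPEC-J2 15.1%.

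HEXA encodes the alpha subunit of beta-hexosaminidase, which removes N-acetylhexosamines from gangliosides and glycosaminoglycans. Its probe set (NCBI Gene 100142664) had log2 signals of 9.63, 10.03 and 9.76 in IPEC-1 and of 11.18, 11.52 and 11.43 in IPEC-J2. The lines did not overlap, and the gap of 1.15 exceeded the ranges of 0.40 and 0.34 within them. HEXA averaged 9.81 ± 0.20 (SD, n = 3) in IPEC-1 and 11.38 ± 0.18 (SD, n = 3) in IPEC-J2 and exceeded its IPEC-1 signal 2.97-fold there (log2 difference 1.57, SE 0.156). Its spread within the lines was the widest among the members in IPEC-1.

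GUSB encodes beta-glucuronidase, which removes glucuronic acid from several glycosaminoglycans. The first probe set of GUSB (NCBI Gene 100144519) had log2 signals of 10.37, 10.52 and 10.47 in IPEC-1 and of 10.97, 11.05 and 11.15 in IPEC-J2. The lines were separated by a gap of 0.45, against ranges of 0.15 and 0.18 within them, and IPEC-J2 had 1.52-fold more signal, a log2 difference of 0.60 (SE 0.0682). The second probe set of GUSB stood at the floor on all 6 arrays. When both were averaged per gene, as in the methods of the study, the log2 difference of GUSB was 0.30.

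HYAL1 encodes the lysosomal hyaluronidase, an enzyme that cuts within the chain and shortens hyaluronan for the others. Its probe set (NCBI Gene 404698) stood at the floor on each array of IPEC-1 and had log2 signals of 6.07, 7.00 and 6.82 in IPEC-J2. Every IPEC-J2 culture thus had a signal and no IPEC-1 culture had one, so that no fold can be given. The mean of 6.63 ± 0.49 (SD, n = 3) in IPEC-J2 had an SD above that of 94.0% of the probe sets above the floor. Signals of this height also occurred on single arrays. Where both other IPEC-J2 arrays had a probe set at the floor, the remaining array was above it in 5.80% of the cases, with a median of 5.87 and a 95th percentile of 7.78 among these signals. The 3 signals of HYAL1 lay between this median and this percentile. The same pattern, floor on all IPEC-1 arrays and signal on all IPEC-J2 arrays, was found for 229 probe sets, of which 150 had a higher mean than HYAL1, and the opposite pattern for 260.

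**Figure D1:**
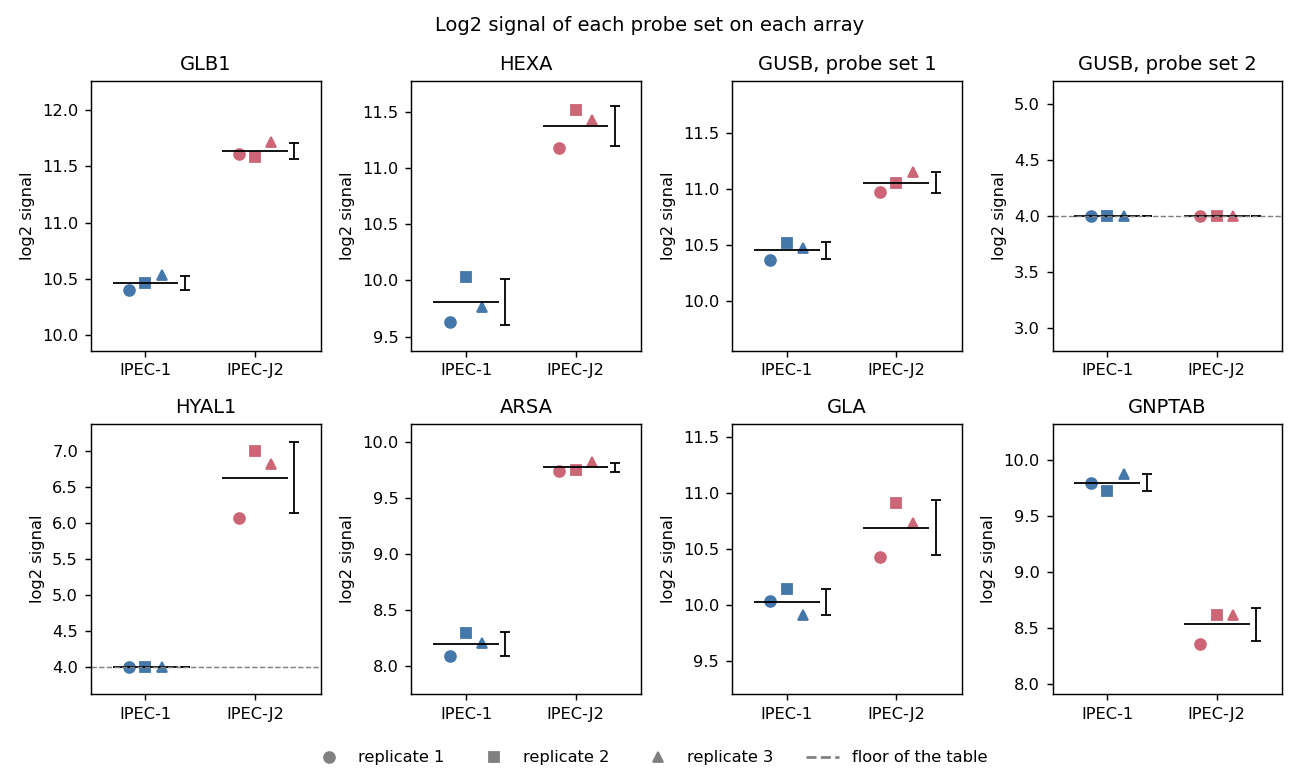
Log2 signal of each of the 8 probe sets on each array, with IPEC-1 in blue and IPEC-J2 in red, marker shapes for the replicates, horizontal lines for the mean and bars for the SD of 3 arrays. The signals of GLB1, HEXA, the first GUSB probe set, HYAL1, ARSA and GLA lie higher in IPEC-J2 without overlap, GNPTAB lies lower, and the second GUSB probe set stays at the floor of 4.

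Glycolipids are the substrates of the next enzymes. ARSA encodes arylsulfatase A, which removes sulfate from sulfatide, a sulfated galactolipid. Its probe set (NCBI Gene 396973) had log2 signals of 8.09, 8.30 and 8.21 in IPEC-1 and of 9.74, 9.75 and 9.82 in IPEC-J2. The gap of 1.44 between the lines was the widest of the members with a signal in both, against ranges of 0.21 and 0.08 within them. ARSA averaged 8.20 ± 0.11 (SD, n = 3) in IPEC-1 and 9.77 ± 0.04 (SD, n = 3) in IPEC-J2 and was 2.97-fold higher (log2 difference 1.57, SE 0.0658). Only 5.84% of the probe sets above the floor had a smaller SD in IPEC-J2.

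GLA encodes alpha-galactosidase A, which removes the terminal galactose of globotriaosylceramide. Its probe set (NCBI Gene 100415928) had log2 signals of 10.04, 10.14 and 9.91 in IPEC-1 and of 10.43, 10.91 and 10.73 in IPEC-J2. The lines did not overlap, but the gap of 0.29 was smaller than the range of 0.48 within IPEC-J2. GLA averaged 10.03 ± 0.12 (SD, n = 3) in IPEC-1 and 10.69 ± 0.24 (SD, n = 3) in IPEC-J2, a log2 difference of 0.66 (SE 0.155) or 1.58-fold higher.

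GNPTAB encodes the alpha and beta subunits of the phosphotransferase that starts the mannose 6-phosphate mark on the hydrolases. It was the only member with a lower signal in IPEC-J2. Its probe set (NCBI Gene 100523554) had log2 signals of 9.79, 9.72 and 9.87 in IPEC-1 and of 8.36, 8.62 and 8.62 in IPEC-J2. The highest IPEC-J2 value lay below the lowest IPEC-1 value by far more than the ranges of 0.15 and 0.26 within the lines. With 9.79 ± 0.08 (SD, n = 3) in IPEC-1 and 8.53 ± 0.15 (SD, n = 3) in IPEC-J2, the signal was 2.39-fold lower in IPEC-J2 (log2 difference -1.26, SE 0.0969).

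Of the 8 probe sets, 7 had a signal on at least 1 array, and all 7 had values that did not overlap between the lines, 6 of them higher in IPEC-J2. Among all 16313 probe sets with a signal on at least 1 array, 41.3% did not overlap and 17.4% did so with higher values in IPEC-J2. Since the members were chosen on this comparison, nothing is read from their count. HYAL1 has no exact difference, because IPEC-1 was at the floor, and was left out of the order. Among the other hydrolases, HEXA and ARSA came first with the same difference. GLB1 stood below ARSA by 0.40 (combined SE 0.0869) and above GLA by 0.51 (combined SE 0.165). GLA and GUSB differed by 0.06, less than their combined SE of 0.169. The combined SE takes the genes as independent, although they were read on the same arrays, and is no test. The absolute difference exceeded that of 90.2% of all probe sets for HEXA and ARSA, of 85.6% for GNPTAB, of 83.9% for GLB1, of 63.9% for GLA and of 60.3% for GUSB.

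The spread between cultures of 1 line was not named in the choice, although a choice on clear differences can favour genes with a small spread. Over the 6 members above the floor on all arrays, the SD lay between 0.07 and 0.20 in IPEC-1 and between 0.04 and 0.24 in IPEC-J2. In each line, 5 of the 6 had an SD under the median of all probe sets above the floor, namely 0.168 for IPEC-1 and 0.178 for IPEC-J2.

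The members shared the low position of IPEC-J2 replicate 1. This array had the lowest signal of its line in 6 of the 7 members with a signal there, with GLB1 as the exception, and in 69.8% of all probe sets above the floor. Its deviation from the mean of the line was -0.13 as a median over the 6 members above the floor and -0.14 over all probe sets. After each array was centred on its 75th percentile, the same array was lowest for 4 of 7 members and for 37.6% of all probe sets. The part of array brightness in the members' spread was not tested further.

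**Figure D2:**
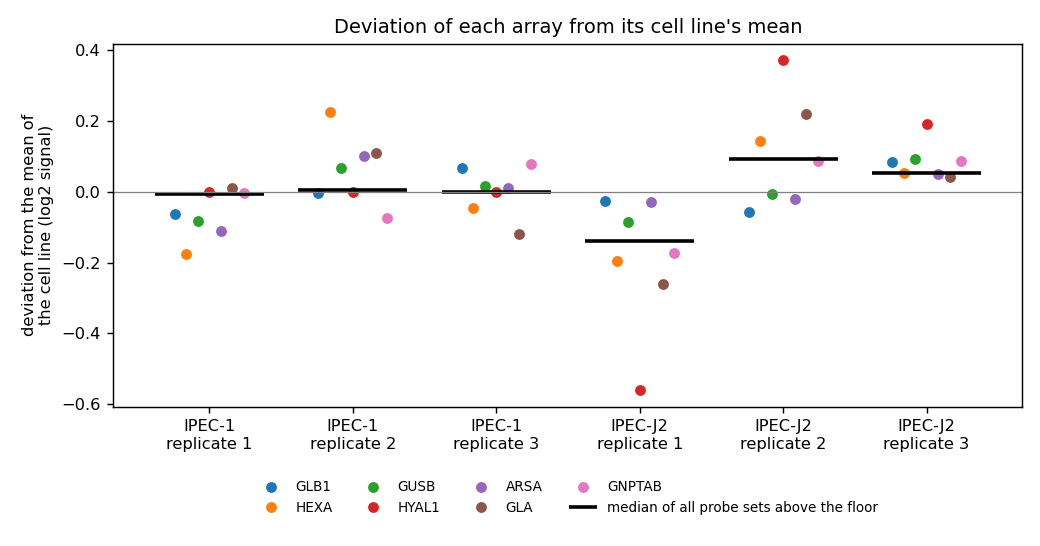
Deviation of the log2 signal on each array from the mean of its cell line, 1 coloured point for each of 7 probe sets, with a black bar for the median over 11005 probe sets above the floor on all arrays. All points of IPEC-J2 replicate 1 lie below 0, as does its bar at -0.14, and HYAL1 varies most within IPEC-J2.

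Part of the arrays can be compared in pairs. The sample descriptions of the labels hold a short note, like a day and month for some arrays, whose meaning is not stated. IPEC-1 replicate 1 has the same one as IPEC-J2 replicate 3, called A here, and IPEC-1 replicate 2 the same as IPEC-J2 replicate 1, called B. IPEC-1 replicate 3 and IPEC-J2 replicate 2 form the remaining pair by exclusion only. HYAL1 was above the floor only on the IPEC-J2 array of each pair. In all 3 pairs each other member kept the direction it had over all arrays, as values without overlap must in any pairing. Within note A, the log2 difference was 1.32 for GLB1, 1.80 for HEXA, 0.78 for GUSB, 1.73 for ARSA, 0.69 for GLA and -1.17 for GNPTAB. Within note B, which holds the dimmest array, it was 1.15 for GLB1, 1.15 for HEXA, 0.45 for GUSB, 1.44 for ARSA, 0.29 for GLA and -1.36 for GNPTAB. Note B thus gave a smaller difference than note A for GLB1, HEXA, GUSB, ARSA and GLA and a larger one for GNPTAB. With arrays centred on their 75th percentile, the values within note B were 1.35 for GLB1 and HEXA, 0.65 for GUSB, 1.64 for ARSA, 0.49 for GLA and -1.16 for GNPTAB. GLB1 was then larger in note B than in note A (1.35 against 1.32), and GNPTAB was nearly equal in both (-1.16 and -1.17).

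**Figure D3:**
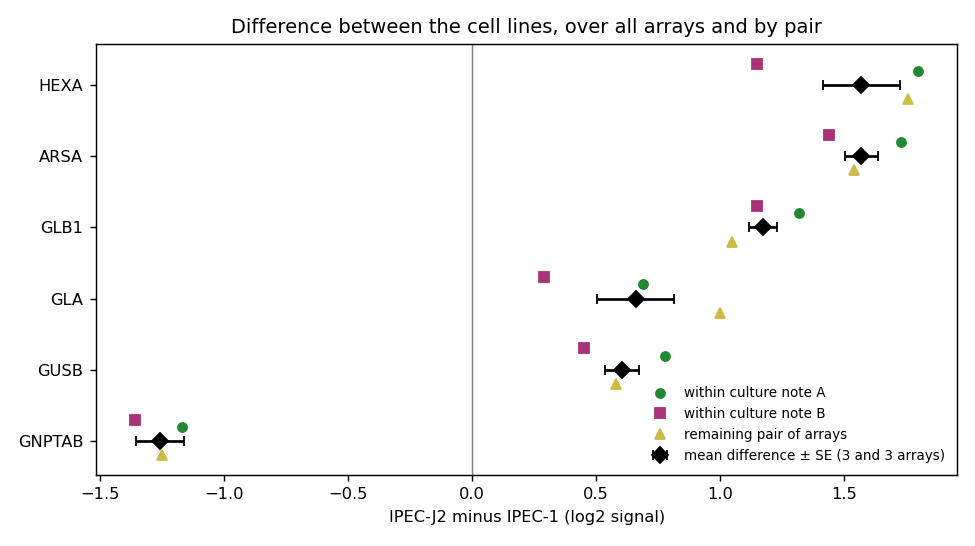
Difference between IPEC-J2 and IPEC-1 in log2 signal for the 6 probe sets above the floor on all arrays, as the mean over 3 and 3 arrays with its SE (black diamonds) and within each pair of arrays (coloured markers). GLB1, HEXA, GUSB, ARSA and GLA lie to the right of 0 and GNPTAB to the left in every pair, as values without overlap must. HYAL1 is left out because IPEC-1 was at the floor.

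Genes that act beside these enzymes were taken from 7 lists written from general knowledge, without the members. Of 120 listed genes, 59 had a probe set with 1 symbol, and 53 had a signal on at least 1 array and were tested. Probe sets of a gene were averaged, limma compared the lines over all 5513 such genes, and an adjusted p under 0.05 was called. Of all genes, 25.8% were called, 12.0% higher and 13.8% lower. Of the 53 pathway genes, 6 or 11.3% were called, 5 of them higher and 1 lower. The median log2 difference was 0.14 in the lists and -0.05 over all genes.

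Most other hydrolases did not pass the test. Of 19 tested hydrolases and activator proteins of glycosaminoglycans, glycolipids, glycoproteins and glycogen, 0 were called higher and 1 was called lower by limma. At an unadjusted p under 0.05, 3 were higher and 6 lower, against 960 higher and 1201 lower of all 5513 genes. The methods' t-test called 0 of them after adjustment, and 1 higher and 5 lower without it, against 920 higher and 1154 lower of all genes without it. The median log2 difference of these 19 genes was -0.03. Their means include probe sets at the floor, whereas the members were given per probe set. With the brightest probe set of each gene, limma also called HGSNAT (log2 difference 0.48, adjusted p = 0.0330) and GM2A (0.85, adjusted p = 0.00535) higher. FUCA1 was then called lower (-0.58, adjusted p = 0.0285). With the dimmest genes by mean signal left out, limma called MAN2C1, NEU1, ASAH1, MAN2B1, FUCA1 and AGA lower and no hydrolase or activator higher. The calls of these genes thus depended on the setting.

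Among all tested genes, the hydrolase called from the means was MAN2C1, an alpha-mannosidase of the cytosol that trims free oligosaccharides. It was 1.49-fold lower in IPEC-J2 (8.45 ± 0.08, SD, n = 3) than in IPEC-1 (9.02 ± 0.26, SD, n = 3), with an adjusted p of 0.0474 from limma, and was not called with the culture note as a block (adjusted p over the alternatives from 0.0176 to 0.142). The call also ended without any 1 array other than IPEC-1 replicate 1 (adjusted p = 0.0814 to 0.126). Between arrays paired by a shared note, the log2 difference was -0.26 for pair A and -0.73 for pair B.

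Several genes that work with a member were chosen after their values were seen, here and among the sorting, membrane and regulator genes that were not called. NEU1, the sialidase that shares a complex with beta-galactosidase, averaged 11.43 in IPEC-1 and 11.01 in IPEC-J2 (log2 difference -0.42, adjusted p = 0.0775 from limma, range 0.0377 to 0.182 over the alternatives). GM2A, the activator protein that presents ganglioside to beta-hexosaminidase, had 8.27 and 8.94 (0.67, adjusted p = 0.123, range 0.00535 to 0.295 over the alternatives). Its 2 probe sets had log2 differences of 0.48 and 0.85, and it was called with the brightest one alone, with quantile normalization, with centring, without IPEC-J2 replicate 1 and without the arrays of pair B. HYAL2, a hyaluronidase at the cell surface, had 8.72 and 8.44 (-0.29, adjusted p = 0.326). ASAH1, the acid ceramidase at the end of glycolipid breakdown, had log2 signals of 9.16, 8.56 and 9.82 in IPEC-1 and of 6.67, 8.45 and 7.65 in IPEC-J2. Its log2 difference of -1.59 did not pass (adjusted p = 0.0878 from limma, range 0.0153 to 0.227 over the alternatives). ASAH1 did pass with the culture note as a block (0.0153) and with the dimmest genes left out (0.0491). ARSK, another sulfatase, was at the floor on IPEC-1 replicates 1 and 2 and at 6.56 on replicate 3, with 6.91 to 7.45 in IPEC-J2 (adjusted p = 0.0735). Without IPEC-1 replicate 3 the adjusted p of ARSK was 0.00214, and over the alternatives it reached 0.266.

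The other hydrolases of glycoproteins did not pass the test. MAN2B1, FUCA1 and AGA, which remove mannose, fucose and the link to asparagine in the lysosome, had log2 differences of -0.57, -0.46 and -0.55. The adjusted p from limma was 0.0768, 0.0579 and 0.0623. With the dimmest genes by mean signal left out, all of them passed (adjusted p = 0.0442, 0.0334 and 0.0351), and over all alternatives the values reached 0.203, 0.122 and 0.164. FUCA2, another fucosidase, had a log2 difference of -0.03 (adjusted p = 0.982), with 1.75 for pair A, where its IPEC-1 array was at the floor, and -1.21 for pair B. MAN2B2 was at the floor on every array.

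In the marking and sorting of hydrolases, 1 of 11 tested genes was called, or 9.1% against 25.8% of all genes. GGA1, an adaptor that loads mannose 6-phosphate receptors into vesicles at the Golgi, had log2 signals of 8.43, 8.36 and 8.59 in IPEC-1 and of 9.11, 9.49 and 9.07 in IPEC-J2. The lines did not overlap, and GGA1 had 1.70-fold more signal in IPEC-J2 (log2 difference 0.76, adjusted p = 0.0180 from limma). Without IPEC-1 replicate 1 or 2 it was not called (adjusted p = 0.0582 and 0.0581, range 0.00822 to 0.0885 over the alternatives). GNPTG encodes the gamma subunit of the same phosphotransferase as GNPTAB and averaged 8.86 in IPEC-1 and 9.09 in IPEC-J2, which did not pass (log2 difference 0.23, adjusted p = 0.235). NAGPA, which uncovers the mannose 6-phosphate mark, had a log2 difference of -0.08 (adjusted p = 0.542). M6PR, the small receptor of the mark, had 11.84 and 11.48 (-0.36, adjusted p = 0.110, 0.0346 without IPEC-1 replicate 1, range up to 0.235 over the alternatives). IGF2R, the large receptor, was at the floor on all arrays, and SUMF1, which activates sulfatases, had a signal only on IPEC-1 replicate 2.

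Of 13 tested genes of the lysosomal membrane and of export, 2 were called, both higher in IPEC-J2. This is 15.4%, against 25.8% of all genes called and 12.0% called higher. PLBD2, a soluble lysosomal glycoprotein of the phospholipase B family and no membrane protein, had 7.41 ± 0.03 (SD, n = 3) in IPEC-1 and 8.53 ± 0.16 (SD, n = 3) in IPEC-J2. It was 2.18-fold higher (adjusted p = 0.00205 from limma), with log2 differences of 1.15 and 1.09 for its 2 probe sets. CD63, a tetraspanin of late endosomes and lysosomes, was 1.48-fold higher (12.98 ± 0.10 in IPEC-1 and 13.55 ± 0.09 in IPEC-J2, SD, n = 3, adjusted p = 0.0137 from limma). With the replicate numbers as a block, CD63 was not called (adjusted p = 0.0574, range 0.00279 to 0.0574 over the alternatives). LAMP1 and LAMP2, the main membrane glycoproteins of lysosomes, had log2 differences of -0.17 and 0.25 (adjusted p = 0.282 and 0.284). Among 3 tested regulators of lysosomal genes, 0 were called by limma or by the methods' t-test after adjustment, and 1 was higher at an unadjusted p under 0.05 by either. This was TFE3, with a log2 difference of 0.32 (adjusted p = 0.103), while TFEB was at the floor on all arrays.

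Enzymes that build the glycans which the members cleave had 2 called genes among 7, both higher in IPEC-J2. This is 28.6%, against 25.8% of all genes called and 12.0% called higher. Only 7 of the 28 listed genes had a probe set, so nothing is read from this count. HAS3, a hyaluronan synthase, had log2 signals of 6.66, 6.55 and 8.13 in IPEC-1 and of 8.90, 9.23 and 9.16 in IPEC-J2. IPEC-1 replicate 3 stood well above the other IPEC-1 arrays, yet below all IPEC-J2 arrays. The signal of HAS3 in IPEC-J2 was 3.95 times that in IPEC-1 (adjusted p = 0.0278 from limma). Without any 1 array other than that one, it was not called, with 0.0641 as the lowest adjusted p and a range of 0.00184 to 0.143 over all alternatives. DSE, the epimerase that turns chondroitin into dermatan sulfate, had no value above the floor in IPEC-1. Its probe set with a signal had 7.99, 8.12 and 8.06 in IPEC-J2 and the other was at the floor throughout. The gene mean was thus 6.03 ± 0.03 (SD, n = 3, adjusted p = 7.11e-05 from limma), and no fold is given. The SD in IPEC-1 was 0 at the floor, and averaging with the floor shrank the SD in IPEC-J2. This p therefore does not measure how much the cultures varied. CHSY1, a chondroitin synthase, had 8.21 in IPEC-1 and 8.85 in IPEC-J2 (log2 difference 0.64) and missed the threshold (adjusted p = 0.0523 from limma, range 0.0282 to 0.187 over the alternatives). B3GAT3, EXT1, B4GALT5 and B4GALT7 were not called.

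**Figure D4:**
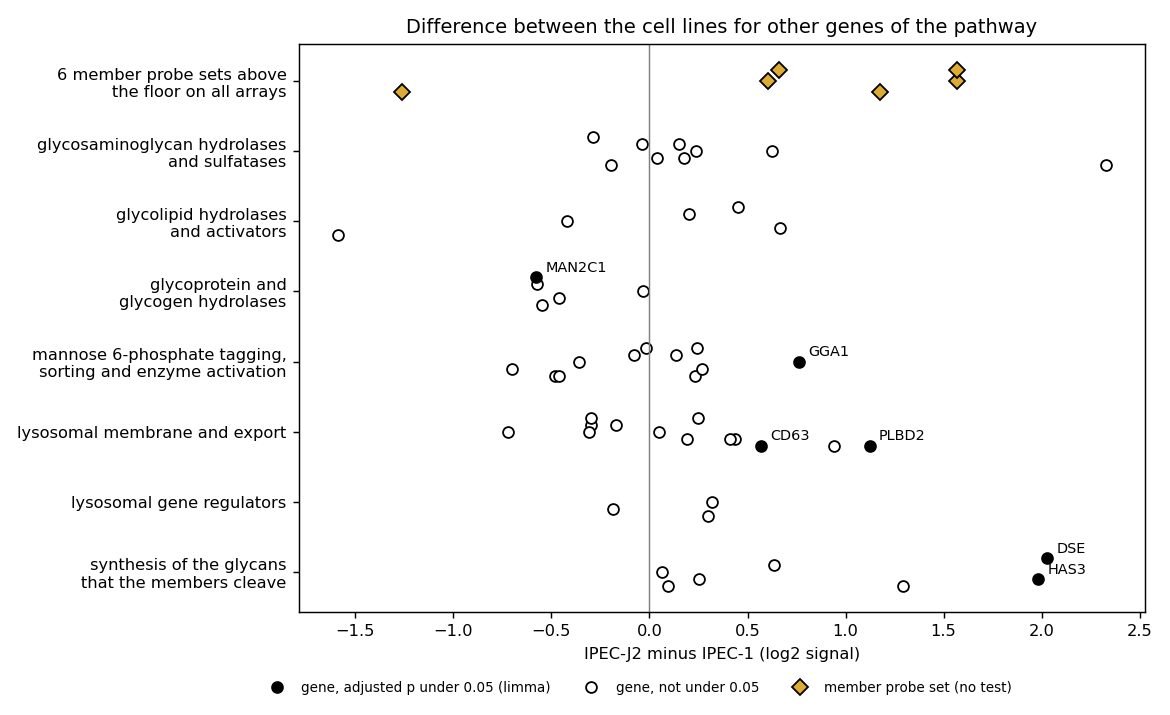
Difference between IPEC-J2 and IPEC-1 in log2 signal for 53 tested genes of the 7 lists (circles, filled where limma gave an adjusted p under 0.05) and for the 6 member probe sets above the floor on all arrays (diamonds, without a test). The called genes are MAN2C1 on the lower side and GGA1, CD63, PLBD2, HAS3 and DSE on the higher side (DSE is drawn from the floor of IPEC-1 and has no exact size), and the other circles of the hydrolase lists lie on both sides of 0.

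The genes whose profile over the 6 arrays was most like that of GLB1 were C1H18orf32, IMPACT and TRAPPC5, with Pearson r of 1.00, 0.999 and 0.998 among 4329 gene means above the floor on all arrays. For GNPTAB they were PTGR2, JAK3 and GARNL3, with r of 0.999, 0.999 and 0.998. The difference between the lines enters these values, and 34 genes for GLB1 and 52 for GNPTAB had an r above 0.99.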

How the data were processed

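The 6 one-colour arrays were grouped by the titles of the labels. The deposited log2 signals were made by the authors with GCOS 1.1.1 and PLIER, per the labels' processing notes, and the methods add global scaling to a common target signal, background correction, normalization and a summary of probe sets. The base of the logarithm is not given in the sources used here. A lowest value of exactly 4 equals the log2 of an offset of 16, so base 2 was assumed, and no further normalization was applied. Low signals lose their true size at this floor. Precision is limited by the number of arrays.

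Of 24123 probe sets, 188 controls were left out. Of the rest, 10069 had 1 gene symbol in the platform annotation, 198 several and 13668 none. Members are given per probe set, and list genes as the mean of their probe sets, as in the methods. Features at the floor on all arrays (1252 genes) were left out of the fits. limma 3.58.1 in R 4.3.3 (lmFit, eBayes) compared the lines without a block. Benjamini-Hochberg adjustment ran over every feature tested, with a threshold of 0.05. The fit was tested on simulated data with known changes, which were added only to genes well above the floor. Changes in genes near the floor were thus not covered.

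The members and the lists were chosen with earlier results of these data known. Genes named by rule are the members, up to 4 called genes in each list and direction with the largest differences, the 3 genes most like GLB1 and GNPTAB by Pearson r, and the markers. The list genes named without a call were chosen after their values were seen. The pairs by culture note, with the arrays left over, served as a block in an alternative fit. Deviations from the means of the lines had r of 0.284 for note A, 0.481 for note B and 0.354 for the remaining pair. Deviations within a line sum to 0, so these values depend on each other and cannot show whether the notes pair the arrays. Note B also holds the dimmest array, and the deviations were not centred.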

Additional observations from a re-analysis of the deposited data

How the results depend on the processing

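Each member kept its direction in all 78 combinations of member and alternative (quantile normalization, centring on the 75th percentile, subtraction of the offset of 16, leaving out each array, within each culture note, and the mean of both GUSB probe sets). Only quantile normalization and centring could have changed a direction, since the values of the lines did not overlap. In 67 of the combinations the difference moved by less than the SD between replicates. The other moves lay within the culture notes, apart from GUSB at 0.30 as a mean of both probe sets and HYAL1, whose difference is drawn from the floor and moved from 2.63 to 6.38 with the offset subtracted. All 7 probe sets stayed without overlap under quantile normalization and centring. Subtracting the offset keeps the order of the values, and leaving out 1 array only removes values, so neither could produce an overlap.

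Counts of calls moved more. Arrays with the same number in their titles had deviations with r of -0.229, -0.337 and 0.0589. Deviations within a line sum to 0, so such values depend on each other and cannot show whether the numbers pair the arrays. With the numbers of the titles as a replicate block, 959 probe sets and 592 genes were called in place of 3094 and 1424, with 2 pathway genes higher and 0 lower. With the culture note as a block, 1642 probe sets were called, and of the genes in the lists MAN2C1 lost and ASAH1 gained its call. Leaving out 1 array gave 1896 to 3023 probe sets and 876 to 1347 genes, the lowest without IPEC-J2 replicate 3, and 3 to 7 pathway genes higher and 0 to 2 lower. In place of 5 higher and 1 lower pathway genes, limma gave 9 and 3 with quantile normalization, 8 and 2 with centring, 9 and 2 with the brightest probe set, 5 and 0 with genes at the floor on all arrays kept, 5 and 6 without the dimmest genes, and 6 and 3 with a robust trended prior. By the methods' t-test the counts were 4 and 0 with adjustment and 10 and 6 without, and it called 5320 probe sets without adjustment. Without the arrays of culture note B, an alternative chosen after seeing the data, limma called 5 pathway genes higher and 0 lower. At an unadjusted p under 0.05, 12 of 53 were higher and 7 lower by limma, against 960 and 1201 of all 5513 genes.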
